A study of Mus musculus with 8 samples.

Results

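The replication-dependent histone genes were taken as every gene of the deposited counts whose symbol begins with Hist1h, Hist2h, Hist3h or Hist4h, 70 of 37310 genes, and were divided by the class in the symbol. There were 6 H1, 20 H2A, 19 H2B, 12 H3 and 13 H4 genes. By cluster, 56 were Hist1 genes on chromosome 13, 10 Hist2 genes on chromosome 3, 3 Hist3 genes on chromosome 11 and 1 the Hist4 gene on chromosome 6. Enough counts for a test were found in 67 of them. RNA-seq was done on NMuMG cells, an epithelial cell line from normal mouse mammary gland, in 4 conditions with 2 libraries each. Control cells and cells in which a fragment of the gene of the long non-coding RNA Lnc-Nr6a1 had been deleted with CRISPR/Cas9 (KO) were left untreated or received 10 ng/ml TGF-β1 for 2 h. All were grown with serum and insulin. The deletion was made with guide pairs around the promoter and first exon in cloned cells, so that clone and deletion cannot be told apart.

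Replication-dependent histone genes supply the core histones H2A, H2B, H3 and H4, which form the nucleosome, and the linker histone H1, which binds between nucleosomes. They are transcribed during S phase, when new DNA has to be packaged, and nearly all lack introns. Their mRNAs end in a conserved stem-loop instead of a poly(A) tail. The stem-loop is bound by SLBP, and the cell removes the mRNAs rapidly when DNA synthesis stops. In bulk libraries, fewer cells in S phase and less histone mRNA per cell cannot be told apart.

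The untreated libraries held 4297832 to 7871090 counts and the treated ones 9895118 to 13574397, so that depth moved with TGF-β. The targeted RNA had 3 and 14 counts in untreated control cells and 11 and 7 in untreated KO cells, and so did not separate these groups, whereas it had 25 and 35 counts in TGF-β-treated control cells and 0 and 0 in TGF-β-treated KO cells. Other genes did separate all KO from all control libraries as labelled. Fam111a had 122 to 188 counts, Mal2 52 to 118 and Dsg2 74 to 102 in the 4 control libraries, and each had 0 in all 4 KO libraries. Foxf1a, with 26, 17, 12 and 2 counts in control and 1, 0, 0 and 0 in KO libraries, was not called (edgeR adjusted p = 0.113 untreated and 0.0536 treated). These 4 were looked up because the study describes them as lowered in the deleted cells. The epithelial keratins Krt8, Krt18 and Krt19 and the cadherin Cdh1 were present in every library, whereas Epcam did not exceed 2 counts and Cldn3 and Cldn7 were at 0. The summed level of the 7 epithelial markers was 5872 to 6968 CPM (counts scaled to library size) untreated and 7937 to 10926 CPM treated, and its part in the results was not tested. Fibroblast, immune, endothelial, adipocyte and germ cell marker lists each summed to at most 5.71 CPM. The sample labels name a total RNA kit and the study's methods an mRNA kit, which matters for mRNAs without a poly(A) tail. The RNAs 7SK and RNase MRP, which also lack such a tail, took 1.01 to 2.01% and 0.319 to 0.611% of the counts of a library. 7SK rose with TGF-β in control cells (log2 fold change 0.83, SE 0.15, edgeR adjusted p = 0.0113) and was not called in KO cells (0.23, SE 0.15), and its part in the results was not tested.

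The stem-loop is shown first because it is what these genes share beyond their names. Within the 200 bases after the stop codon (NCBIM37), the 16-base pattern GG, 3 pyrimidines, TT, a pyrimidine, T, any base, A, 3 purines, CC was found in 63 of the 67 members with an annotated stop codon. It was found in 4 of 21863 other protein-coding genes (0.0183%), H2afx among them. The match began 21 to 58 bases after the stop, with a median of 30. There were 8 distinct stem-loops, and for each a member is printed with 5 bases on either side and the 16 matching bases in capitals. The stem began with GGCTC in 50 of the 50 H1, H2A, H2B and H3 genes with a match, and with GGCCC (11) or GGTCC (2) in the 13 H4 genes.
Hist1h2ai, found in 39 members of classes H1, H2A, H2B and H3: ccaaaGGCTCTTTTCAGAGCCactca
Hist1h3f, found in 9 members of the same classes: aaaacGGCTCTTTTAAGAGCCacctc
Hist1h3g, found in it alone: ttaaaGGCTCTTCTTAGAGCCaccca
Hist2h2ac, found in it alone: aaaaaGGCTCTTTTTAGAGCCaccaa
Hist1h4d, found in 8 H4 genes: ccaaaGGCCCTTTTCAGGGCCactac
Hist2h4, found in 2 H4 genes: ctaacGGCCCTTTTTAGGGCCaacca
Hist1h4b, found in 2 H4 genes: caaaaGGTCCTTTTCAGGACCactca
Hist1h4a, found in it alone: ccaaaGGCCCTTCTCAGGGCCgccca

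The 16 bases of Hist1h2ai lie at chr13:21808708-21808723 on the plus strand and those of Hist1h4d at chr13:23673819-23673834 on the plus strand. Those of Hist2h4 lie at chr3:96066862-96066877 on the minus strand. They begin 24, 36 and 38 bases after the stop codon. The members without a match were Hist1h2al, Hist1h2an, Hist2h2bb and Hist2h2be, and the annotated pseudogenes Hist1h2aj, Hist2h3c2 and Hist3h2bb-ps, which have no annotated stop codon.

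Promoters are shown for the classes because many members moved together. RefSeq windows of GRCm38.p6, 250 bases before to 50 after the start, were matched to 61 members. Each was searched on both strands for TATAAA (the TATA box), CCAAT (the CCAAT box), ATTTGCAT (the octamer known from H2B promoters) and AAACACA (the H1 box). CCAAT was found in 85.2% of the members' windows against 37.4% of 32851 RefSeq windows, TATAAA in 57.4% against 13.6%, ATTTGCAT in 21.3% against 1.74% and AAACACA in 14.8% against 7.18%. The classes differed in these letters. CCAAT was in all 49 H1, H2A, H2B and H3 windows and in 3 of 12 H4 windows. ATTTGCAT was in 7 of 17 H2A and 6 of 16 H2B windows and in none of the other classes, and AAACACA was in 5 of 6 H1 windows. Windows of neighbouring H2A and H2B genes on opposite strands can cover the same DNA, as in Hist1h2ae and Hist1h2bg. A site there is counted for both genes, so the windows are not all separate. For each class, the upstream 250 bases of the member with the smallest p for TGF-β in KO cells are printed, among members with at least 50% of unique sequence as defined further on, with matches to any of the 4 motifs in capitals.
Hist1h1d, GRCm38.p6 chr13:23554782-23555031, plus strand: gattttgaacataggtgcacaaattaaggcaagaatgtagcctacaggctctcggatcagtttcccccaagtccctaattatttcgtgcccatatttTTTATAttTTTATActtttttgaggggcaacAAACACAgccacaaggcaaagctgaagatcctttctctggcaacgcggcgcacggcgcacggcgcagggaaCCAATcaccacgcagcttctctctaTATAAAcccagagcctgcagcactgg
Hist1h2ai, GRCm38.p6 chr13:21716162-21716411, plus strand: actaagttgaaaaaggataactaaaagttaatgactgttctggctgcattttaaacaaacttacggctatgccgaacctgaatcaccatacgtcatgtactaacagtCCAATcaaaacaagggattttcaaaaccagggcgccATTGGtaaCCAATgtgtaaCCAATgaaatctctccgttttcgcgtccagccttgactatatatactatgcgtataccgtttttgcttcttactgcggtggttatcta
Hist1h2bh, GRCm38.p6 chr13:23543445-23543694, minus strand: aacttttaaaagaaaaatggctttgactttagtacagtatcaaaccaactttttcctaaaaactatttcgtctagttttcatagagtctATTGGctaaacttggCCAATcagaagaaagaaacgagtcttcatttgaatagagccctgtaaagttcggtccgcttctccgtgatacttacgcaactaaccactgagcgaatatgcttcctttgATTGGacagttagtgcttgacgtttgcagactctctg
Hist1h3g, GRCm38.p6 chr13:23535168-23535417, plus strand: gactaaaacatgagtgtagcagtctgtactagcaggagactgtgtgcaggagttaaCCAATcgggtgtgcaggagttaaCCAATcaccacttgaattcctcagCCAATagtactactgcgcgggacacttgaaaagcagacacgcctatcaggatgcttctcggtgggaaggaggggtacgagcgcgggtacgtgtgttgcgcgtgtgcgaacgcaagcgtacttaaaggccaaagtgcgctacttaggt
Hist1h4b, GRCm38.p6 chr13:23756687-23756936, plus strand: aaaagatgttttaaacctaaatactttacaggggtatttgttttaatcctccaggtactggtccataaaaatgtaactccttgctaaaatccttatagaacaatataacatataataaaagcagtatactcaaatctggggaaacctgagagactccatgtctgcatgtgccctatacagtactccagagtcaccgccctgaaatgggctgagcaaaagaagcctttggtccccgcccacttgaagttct

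Hist1h4b had no match in its window, while the other promoters printed each held CCAAT or its complement ATTGG more than once or, in Hist1h1d, beside TATAAA and AAACACA. Histone genes are near copies of each other, and reads from shared stretches cannot be assigned with certainty. The share of 75-base windows of a member's exons that occur once in NCBIM37, on either strand, had a median of 98.6% for H1, 41.1% for H2A, 52.6% for H2B, 43.1% for H3 and 62.6% for H4. Hist1h2ao, Hist1h2ap, Hist1h2bq, Hist1h2br, Hist2h2aa1 and Hist2h2aa2 had no unique window, so that their single values are uncertain. Hist2h2aa1 was at 0 counts in every library while Hist2h2aa2 had 50 to 232. By annotation, Hist2h2aa1 (chr3:96049461-96050038) overlaps the H3 gene Hist2h3c1 (chr3:96049477-96052431) on the plus strand. The values of both are therefore uncertain, and the part of the overlap in them was not tested. The testis histone genes Hist1h1t and Hist1h2aa, with at most 4 and 1 counts in a library, were the other members not tested.

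Summed over all members and scaled with TMM factors, histone transcripts amounted to 10060 and 8094 CPM in untreated control cells and 7724 and 6492 CPM in TGF-β-treated control cells. In KO cells the sums were 7674 and 9271 CPM untreated and 4816 and 3589 CPM treated. The treated libraries lay below the untreated ones in both genotypes, and the treated KO libraries were the lowest of all. The means were 9077 ± 1390 (SD, n = 2), 7108 ± 871, 8472 ± 1130 and 4202 ± 868 CPM in the same order, so that TGF-β left 78.3% of the untreated sum in control and 49.6% in KO cells. Members also moved together between libraries of 1 condition. Replicate 1 was higher than replicate 2 in 63 of the 67 tested members in untreated control, 53 in treated control, 8 in untreated KO and 58 in treated KO cells, with median log2 differences of 0.35, 0.47, -0.28 and 0.38. Counts of members on 1 side of 0 are therefore not counts of independent genes. As shares of the library, the members held on average 0.955%, 0.678%, 0.891% and 0.398% of counts.

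The classes did not keep their proportions. After TGF-β, 39.4% of the H2A and 41.9% of the H3 sum remained in KO cells, against 51.6% for H1, 53.7% for H2B and 53.1% for H4. In control cells 62.4% and 58.4% remained for H2A and H3, against 82.9%, 91.6% and 79.4%. H3 genes held 15.4, 15.6, 15.7 and 16.4% of all histone counts in the 4 untreated libraries and 12.6, 10.3, 13.9 and 13.2% in the 4 treated ones. H2B genes held 25.3, 24.5, 24.3 and 24.1% untreated and 29.0, 29.4, 26.1 and 26.3% treated. Both shares separated untreated from treated libraries without overlap, H3 downwards and H2B upwards, and so did H2A, with 9.39 to 10.9% untreated and 7.12 to 9.34% treated. Hist2h2bb alone held 4091 of 21133 H2B counts in untreated control replicate 1 and 6240 of 18053 in treated control replicate 2. The H2B shares and the 91.6% thus depend strongly on 1 gene, and no H2B separation is claimed without it. These shares are described only, since the classes of a library sum to 100%. H2A and H3 are also the classes with the least unique sequence. Members with under 50% of unique windows had a median log2 fold change of -1.33 with TGF-β in KO cells (18 of 28 called in the test that follows), and those with at least 50% had -1.01 (19 of 39). How reads with several locations were counted is not given in the sources used here, and its part in the class difference was not tested.

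**Figure D1:**
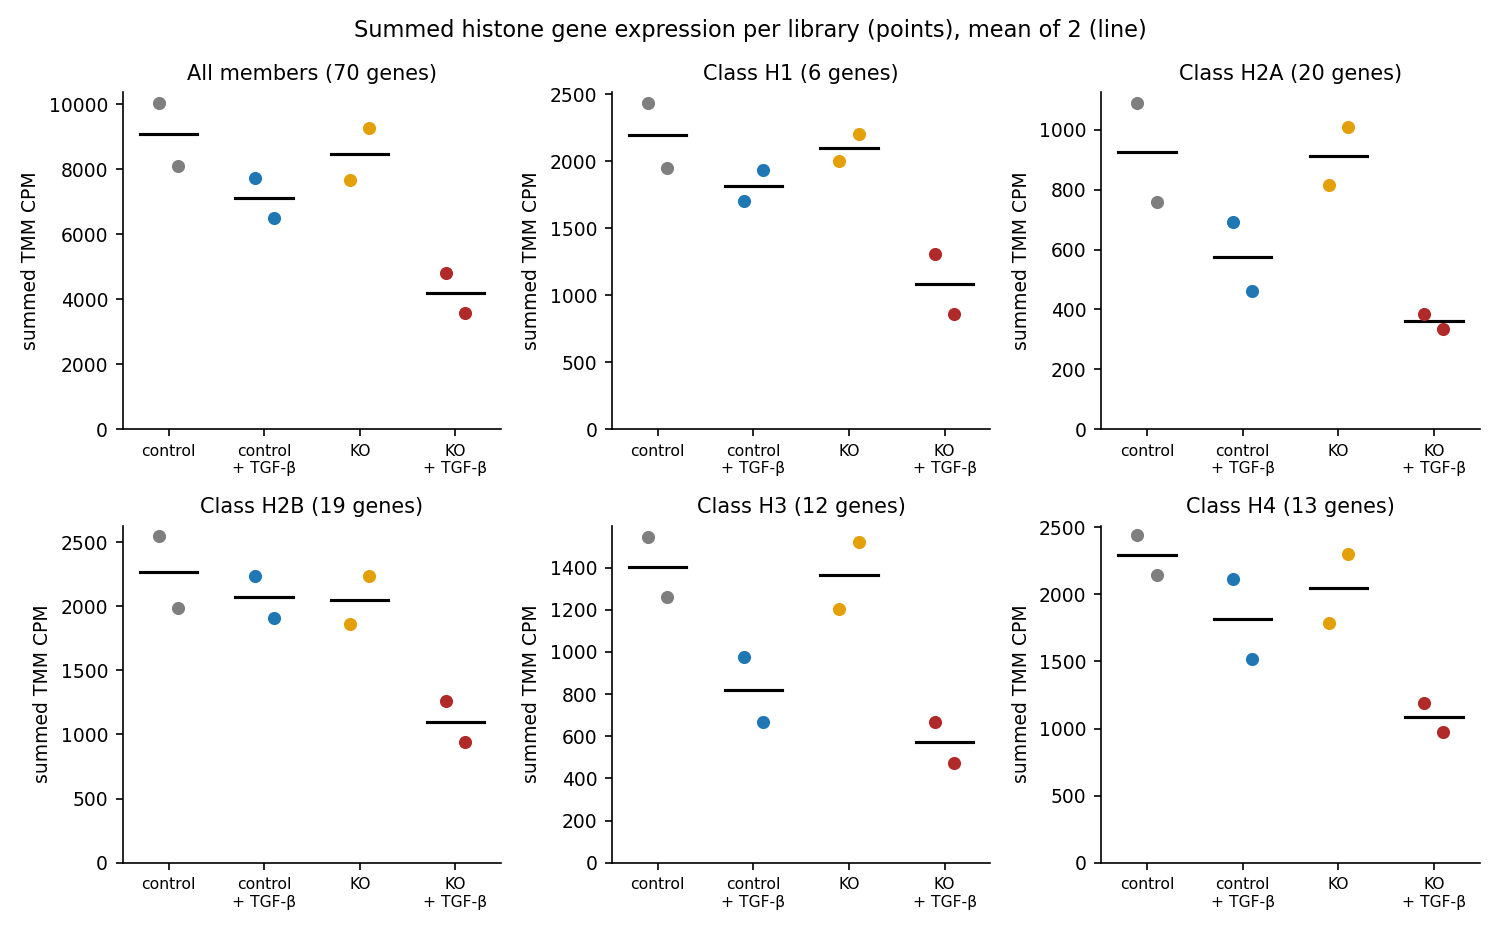
Summed TMM-scaled CPM (y axis, from 0) of all 70 histone genes and of each class in the 4 conditions (x axis); points are libraries and lines the mean of 2. In every panel the 2 treated KO libraries lie below the untreated KO libraries. The share of the untreated KO mean left after TGF-β is smallest for H2A (39.4%) and H3 (41.9%).

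The fold changes of single members were tested with edgeR's quasi-likelihood test over 13028 genes, adjusted by Benjamini-Hochberg. Called genes are those past an adjusted p of 0.05 whose log2 fold change also exceeds 0.5 in size. In KO cells TGF-β lowered 37 of the 67 tested histone genes and raised 0, against 2.57% of all tested genes called lower. All 67 log2 fold changes were below 0, with a median of -1.09, while the median over all genes was 0. Libraries did not overlap in 64 of 67, the treated ones lower, against 28.3% of all genes. By class the calls were 3 of 5 H1, 11 of 18 H2A, 7 of 19 H2B, 10 of 12 H3 and 6 of 13 H4 genes, with class medians of -0.93, -1.58, -1.002, -1.36 and -0.90. When a library was left out, leaving 1 in its group, the median stayed at -1.31 to -0.93, but the count moved. It was 4 without KO replicate 1, 4 without KO replicate 2 and 4 without TGF-β-treated KO replicate 2, with 66 of 67 still below 0 each time, but 56 and 57 without TGF-β-treated control replicates 1 and 2. With every library thinned to 4297832 counts, 40 of 66 were called and 66 of 66 were below 0. DESeq2 called 56, and 61 were called without the filter on low counts.

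**Figure D2:**
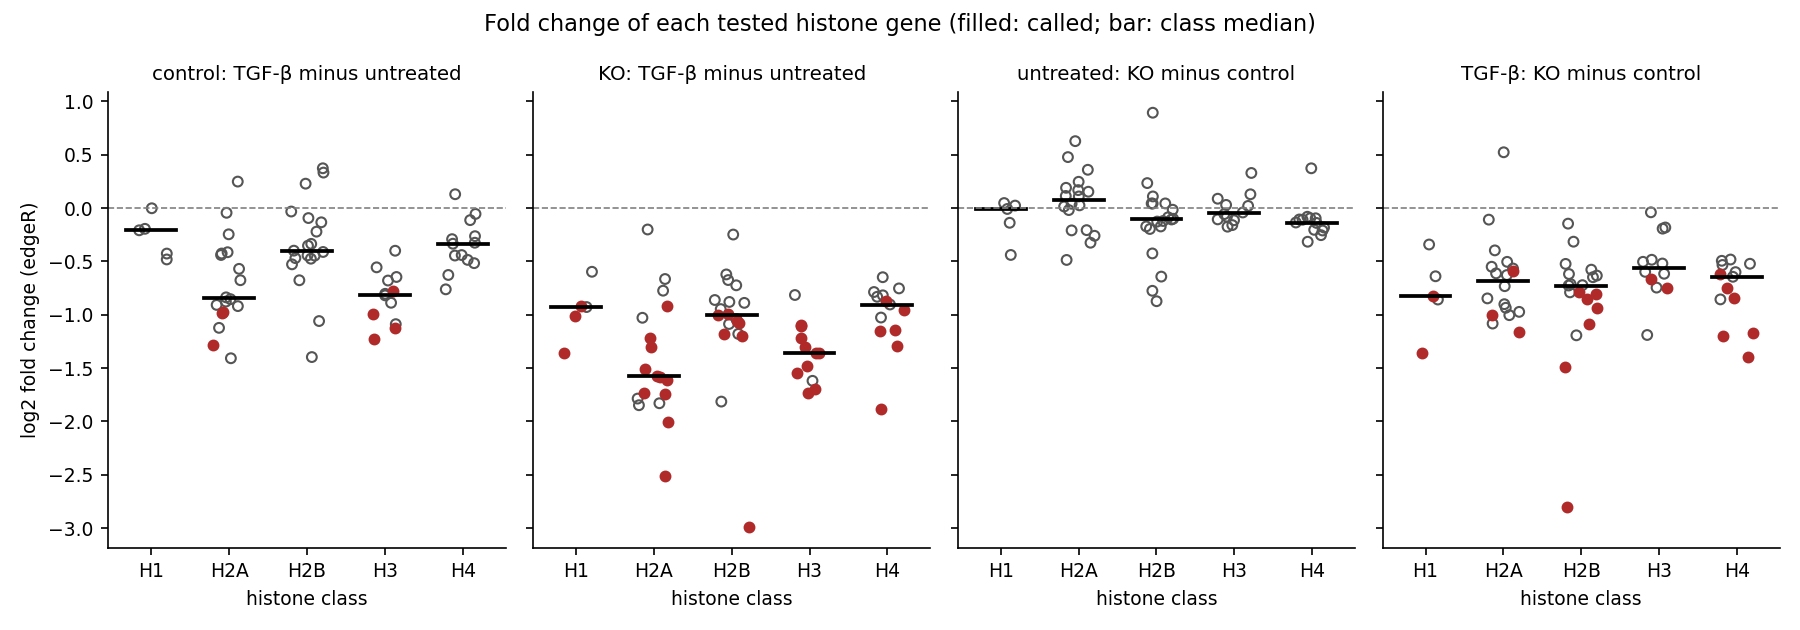
log2 fold change (edgeR, y axis) of each of the 67 tested histone genes by class (x axis) in 4 comparisons; filled points are called and bars are class medians. In KO cells after TGF-β every gene lies below 0, and 37 are filled, whereas 0 are filled between untreated KO and control cells.

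Among H2A genes, Hist1h2ai (chr13:21808281-21809321 in NCBIM37) had 78.6 and 70.3 CPM in untreated control cells and 40.7 and 35.03 CPM after TGF-β. In KO cells it had 74.5 and 78.7 CPM untreated and 26.5 and 23.8 CPM treated. Its libraries did not overlap in either genotype, and untreated control and KO cells were alike in level. Its log2 fold change with TGF-β was -1.61 in KO cells (SE 0.16, edgeR adjusted p = 0.00079), the call of the 37 that held under every alternative tried. Among H2A genes with larger fold changes were Hist1h2ag, from 35.1 and 45.6 to 10.8 and 9.38 CPM (log2 fold change -2.00, SE 0.33), and Hist1h2ah, from 45.2 and 49.8 to 14.7 and 13.8 CPM (-1.74, SE 0.29). Hist1h2ao reached -2.51 (SE 0.44) but has no unique window. Only 77 of 397 windows of Hist1h2ag and 159 of 457 of Hist1h2ah are unique, so their values are uncertain too. The other H2A genes called in KO cells, Hist1h2ab, Hist1h2ac, Hist1h2ad, Hist1h2af, Hist1h2ak, Hist1h2an and Hist2h2ac, lay between -1.73 and -0.92. Among them Hist1h2ab, Hist1h2ad, Hist1h2af and Hist1h2an have under 50% of unique windows.

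Among H3 genes, Hist1h3f had 265.7 and 252 CPM in untreated and 167 and 135 CPM in treated control cells. In KO cells it had 199.5 and 264 CPM untreated and 107 and 73.5 CPM treated, a log2 fold change of -1.36 (SE 0.21, edgeR adjusted p = 0.00635). The treated KO libraries were the lowest of the 8. Hist1h3g went from 99.9 and 111 to 45.6 and 26.5 CPM in KO cells (-1.55, SE 0.24), and Hist2h3b from 36.6 and 36.2 to 14.1 and 8.34 CPM (-1.70, SE 0.25). Hist2h3c1, Hist1h3a, Hist1h3b, Hist1h3d, Hist1h3e, Hist1h3h and Hist1h3i also fell, by log2 1.09 to 1.74. Hist2h3c1 overlaps the H2A gene Hist2h2aa1 by annotation, and only 21.5% of the windows of Hist2h3b are unique. The H3 genes not called were Hist1h3c, at -0.81, and the pseudogene Hist2h3c2, at -1.62.

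Among the linker genes, Hist1h1d fell in KO cells from 512 and 578 to 271 and 153 CPM, a log2 fold change of -1.36 (SE 0.27, edgeR adjusted p = 0.018). Hist1h1e (-1.01, SE 0.20) and Hist1h1a (-0.92, SE 0.23) fell as well. Hist1h1c, the H1 gene that moved least, had 462 and 535 CPM untreated and 376 and 283 CPM treated (-0.60, not called). Per kilobase of exon, Hist1h1e was the most abundant H1 gene at a mean of 556 CPM per kb over the 8 libraries.

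Hist1h4d, which supplies H4, was the most abundant member per length at a mean of 1035 CPM per kb. It had 553 and 452 CPM in untreated and 509 and 328 CPM in treated control cells, which overlap, and 418 and 495 CPM in untreated and 268 and 232 CPM in treated KO cells, which do not. Its log2 fold change in KO cells was -0.87 (SE 0.21, edgeR adjusted p = 0.042). Hist1h4b, Hist1h4j, Hist1h4m, Hist2h4 and Hist4h4, the gene on chromosome 6, were called too, from -1.88 in Hist1h4m to -0.96 in Hist2h4.

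H2B, the partner of H2A in the nucleosome, had the following values. Hist1h2bm went from 144 and 186 to 93.8 and 65.5 CPM in KO cells (-1.05, SE 0.26, edgeR adjusted p = 0.0409), and Hist1h2bh from 154 and 189.8 to 105.8 and 66.0 CPM (-1.002, SE 0.23). Hist1h2bf, Hist1h2bk, Hist1h2bl and Hist1h2br fell by log2 0.99 to 1.20. The pseudogene Hist3h2bb-ps had the lowest fold change of any member (-2.99, SE 0.71) on 18 counts at most in untreated and 4 at most in treated KO libraries. Hist2h2be (-0.25) and Hist2h2bb (-0.62) were not called.

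**Figure D3:**
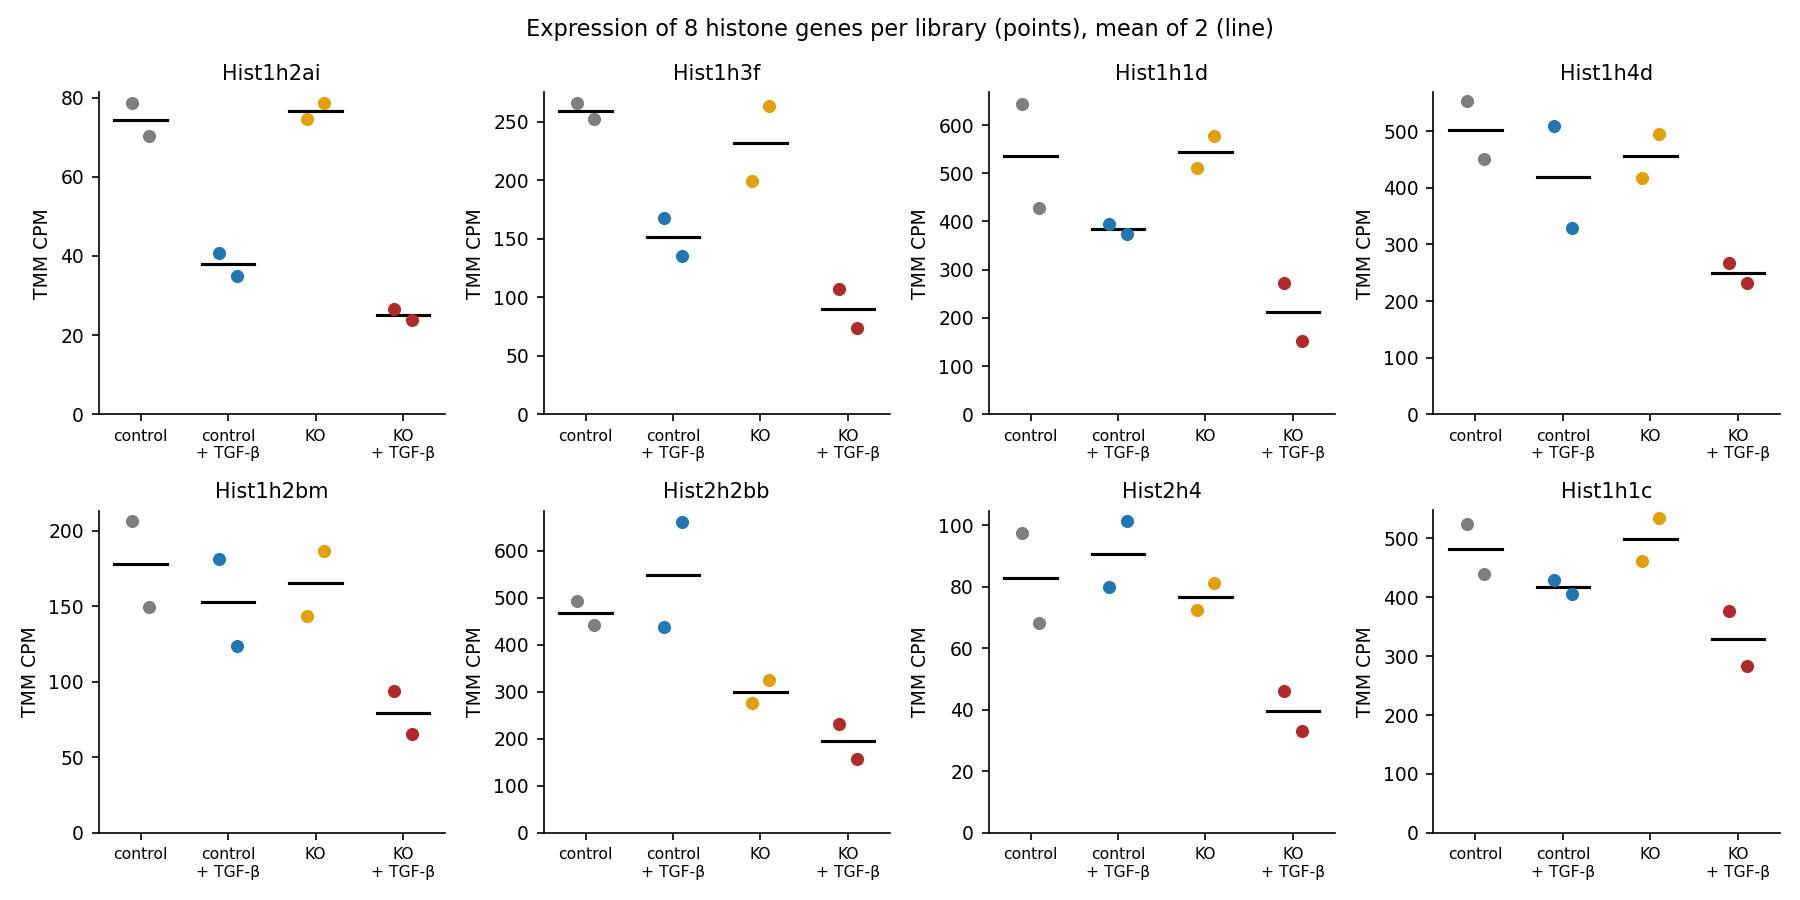
TMM-scaled CPM (y axis, from 0) of 8 histone genes in the 4 conditions; points are libraries and lines the mean of 2. Hist1h2ai and Hist1h3f are lower after TGF-β in both genotypes, and Hist2h2bb lies lower in each KO library than in any control library.

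In control cells TGF-β lowered 7 histone genes and raised 0, against 4.47% of all tested genes called lower. The 7 were the H2A genes Hist1h2af, Hist1h2ai and Hist1h2ak and the H3 genes Hist1h3f, Hist1h3g, Hist2h3b and Hist2h3c1, with log2 fold changes of -1.28 to -0.78. All 7 were among the 37 of 67 called in KO cells, in a contrast of other libraries but from the same fit and its shared estimate of the spread. Below 0 lay 62 of 67 members, with a median of -0.47, which is no larger than the median difference of 0.47 between the treated control replicates, and 37 of 67 did not overlap, the treated libraries lower, against 26.3% of all genes. Class medians were -0.84 for H2A and -0.81 for H3, and -0.21, -0.40 and -0.33 for H1, H2B and H4. Hist1h2af had 64.4 and 45.3 CPM untreated and 28.5 and 16.5 CPM treated (-1.28, SE 0.28, edgeR adjusted p = 0.0261), and Hist2h3b 39.8 and 42.2 against 17.5 and 20.1 CPM (-1.12, SE 0.24). Of their windows 29.5% and 21.5% are unique, so both values are uncertain. Without control replicate 1 the count was 0, with 52 of 67 below 0. It was 2 without control replicate 2, 2 without TGF-β-treated control replicate 2, 25 without TGF-β-treated control replicate 1, and 3 without KO replicate 1 or 2. The median was -0.82 without TGF-β-treated control replicate 1 and -0.29 without control replicate 1. Other settings gave 16 calls with DESeq2, 24 without the filter, 11 after thinning and 3 with the 4 libraries alone.

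The difference between the TGF-β responses (KO minus control) was called in 0 histone genes with edgeR, and in 0 of all genes tested (0%). The count was 0 with DESeq2 and with limma-voom as well, and 5 without the filter on low counts. At an unadjusted p under 0.05 stood 19 members, all with the lower fold change in KO cells, against 8.7% of all genes. The median difference was -0.59 on the log2 scale, or -0.32 without TGF-β-treated control replicate 1, 65 of 67 members were below 0, and the median over all genes was near 0. Replicates of 1 condition differed in 1 direction in up to 63 of 67 members, as given above. The smallest p belonged to Hist1h4m (-1.77, SE 0.46) and Hist1h2bb (-1.32, SE 0.35), with edgeR adjusted p of 0.444 each. Of the exon windows of Hist1h4m only 36 of 328 are unique, so its value is uncertain. Hist1h2bb had 246 and 177 CPM untreated and 345 and 204 CPM treated in control cells, and 260.4 and 239 CPM untreated and 143 and 115 CPM treated in KO cells. By class the unadjusted p was under 0.05 in 3 H1, 6 H2A, 6 H2B, 0 H3 and 4 H4 genes.

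Untreated KO and control cells were compared next. Histone genes called were 0 with edgeR, 0 with DESeq2 and 0 with limma-voom, while edgeR called 1.83% of all tested genes. The median log2 fold change was -0.09, and 41 of 67 members lay below 0. The direction turned without control replicate 1, with a median of 0.12 and 19 of 67 below 0, and without KO replicate 1, with 0.08 and 23 of 67. A single gene was called without the filter on low counts and with the 4 untreated libraries alone. The only member with an unadjusted p under 0.05, against 14.9% of all genes, was the H2B gene Hist2h2bb (-0.64, SE 0.23, edgeR adjusted p = 0.232).

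After TGF-β, 20 histone genes were lower in KO than in control cells and 0 higher, against 6.57% of all tested genes called lower. Below 0 lay 66 of 67 members, with a median of -0.66, and 54 did not overlap, the KO libraries lower, against 27.4% of all genes. The calls were 2 H1, 3 H2A, 7 H2B, 2 H3 and 6 H4 genes. This contrast shares its libraries with both TGF-β contrasts. Hist2h2bb had 437 and 660.4 CPM in treated control cells and 232 and 158 CPM in treated KO cells (-1.49, SE 0.23, edgeR adjusted p = 0.00516), the call of the 20 that held under every alternative tried. Hist1h1a had 269.7 and 344 CPM against 149 and 89.9 CPM (-1.36, SE 0.23), and Hist4h4 197 and 127 CPM against 81.7 and 63.0 CPM (-1.17, SE 0.23). Hist1h1e, Hist1h2ai, Hist1h2bb, Hist1h2bk, Hist1h2bm, Hist1h2bp, Hist1h2br, Hist1h3b, Hist1h3f, Hist1h4b, Hist1h4d, Hist1h4f, Hist1h4m, Hist2h2ab, Hist2h2ac, Hist2h4 and Hist3h2bb-ps made up the rest. The count was 2 without TGF-β-treated KO replicate 2 and 2 when the 4 treated libraries were fitted alone. It was 13 without control replicate 1, 11 without TGF-β-treated control replicate 1, 11 without KO replicate 1 and 10 without KO replicate 2, but 32 with DESeq2 and 41 without the filter on low counts. Without TGF-β-treated control replicate 1 the median was -0.38, with 58 of 67 below 0.

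The Hist2 cluster on chromosome 3 was summed separately. Its sum was 854 and 706 CPM in untreated and 704 and 892 CPM in treated control cells, against 537 and 631 CPM in untreated and 370.4 and 273 CPM in treated KO cells. KO libraries were thus lower with and without TGF-β, at 74.9% of control untreated and 40.3% treated. For Hist1 these shares were 95.3% and 61.9%. Hist2h2bb carried the untreated difference, with 493 and 442 CPM in control and 275 and 324 CPM in KO cells. Without it the other 9 Hist2 genes summed to 361 and 264 CPM in untreated control and 262 and 307 CPM in untreated KO cells, whose ranges overlap. Their KO sum was 91.0% of control untreated and 50.8% after TGF-β. Other genes moved with it. The 632 tested non-histone genes of chromosome 3 had a median log2 fold change of -0.35 between untreated KO and control cells and -0.33 after TGF-β, against -0.01 and -0.11 for 494 genes of chromosome 13. The part of the chromosome in the Hist2 values was not tested. Outside chromosome 3, 16 of 58 members were called lower in treated KO cells, with a median of -0.65, and 33 of 58 were called lower with TGF-β in KO cells.

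Many H2A and H2B genes lie head to head and share the stretch between their starts. In 13 such couples, each tested in both members, the annotated gap was 167 to 268 bases, except in Hist1h2aj/Hist1h2bm, which overlap by annotation and are uncertain without the strand setting. In KO cells the H2A gene had the lower log2 fold change with TGF-β in 12 of 13 couples, with a median difference (H2A minus H2B) of -0.70. In control cells it was so in 11 of 13, with a median of -0.48. In Hist1h2ag/Hist1h2bj the fold changes in KO cells were -2.00 and -1.04, and in Hist1h2ak/Hist1h2bn they were -1.51 and -0.88. The exceptions were Hist3h2a and the pseudogene Hist3h2bb-ps in both genotypes and, in control cells, Hist2h2ac and Hist2h2be. These couples are a description without a test, and 2 of them, Hist1h2bq/Hist1h2ao and Hist1h2ap/Hist1h2br, hold no unique window. In the couples given as examples, Hist1h2ag has 19.4% and Hist1h2bn 27.7% of unique windows. Under 50% are also Hist1h2ad, Hist1h2ah, Hist1h2aj and Hist1h2an, and the H2B genes Hist1h2bf, Hist1h2bj, Hist1h2bk and Hist1h2bl.

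**Figure D4:**
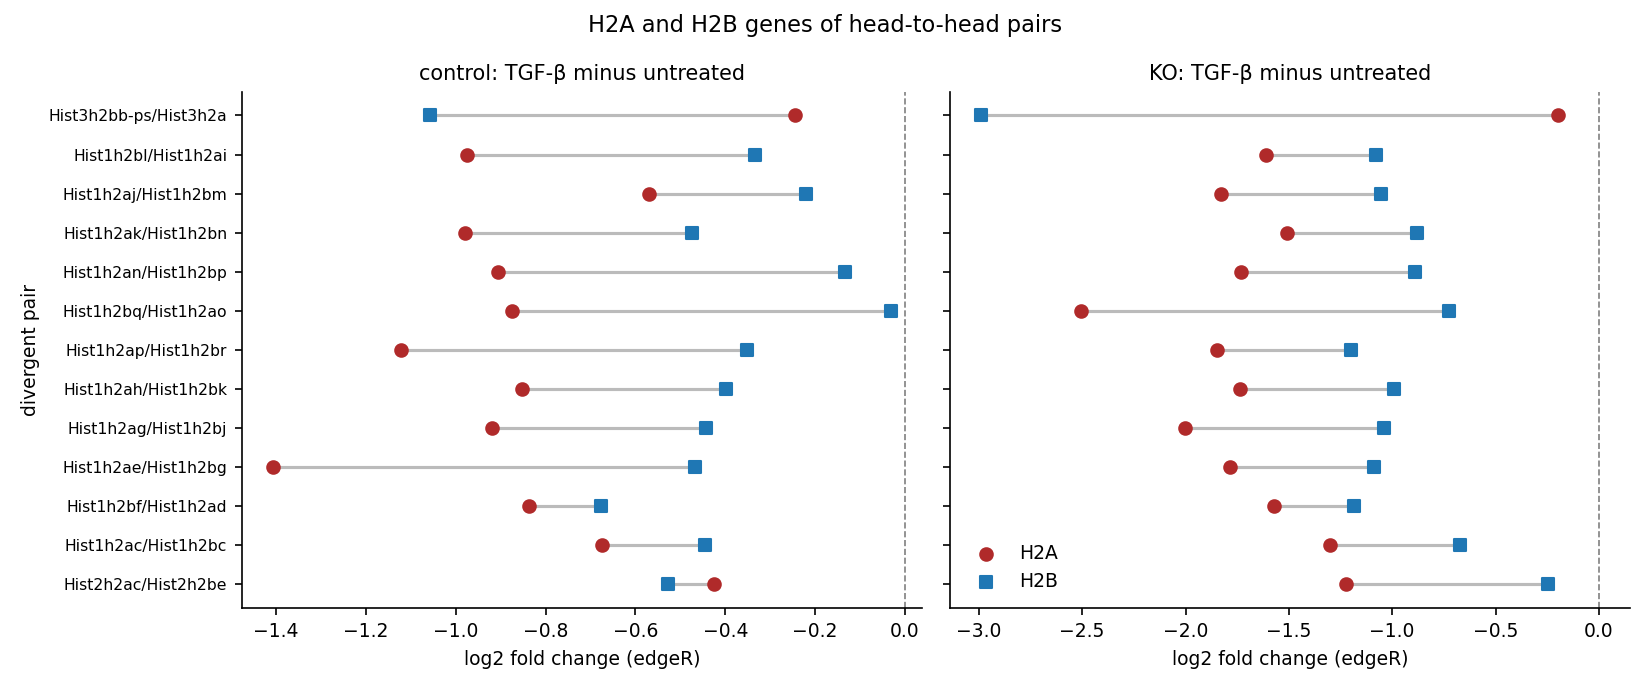
log2 fold change with TGF-β (edgeR, x axis) of the H2A gene (circle) and the H2B gene (square) of 13 head-to-head couples (y axis) in control and KO cells. In KO cells the circle lies left of the square in 12 of 13 couples.

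Genes that work with the histone genes were listed from their known functions. Of 42 tested DNA replication genes, 20 fell with TGF-β in KO cells and 6 in control cells, and 24 were lower in treated KO than in treated control cells, against 2.57%, 4.47% and 6.57% of all tested genes called lower. These contrasts share libraries. Cdt1, E2f2, E2f8, Pola2, Pold1 and Uhrf1 were called in both genotypes, and, among others, Cdc45, Cdc6, Dnmt1, Fen1, Mcm2, Mcm3, Mcm5, Mcm7, Mcm10, Pole, Rfc3, Rpa2 and Tk1 in KO cells. Lower in treated KO cells were, among others, Ccna2, Ccne1, Ccne2, Cdc45, Cdc6, Gins1, Gins4, Mcm3, Mcm4, Mcm5, Mcm6, Mcm7, Mcm10, Orc1, Orc6, Pola1, Pole, Prim1, Prim2, Rfc3, Rpa2, Rrm1 and Tyms. The medians were -0.74, -0.16 and -0.73, and 0 were called between the untreated cells. Cdc6, which loads the replicative helicase, had log2 fold changes of -1.58 in KO (SE 0.19) and -0.25 in control cells (SE 0.18, not called). E2f2, a transcription factor of S-phase genes, fell in both, with log2 fold changes of -3.13 and -3.31. Of 30 tested identifiers of 29 histone chaperone genes (Srcap has 2), 7 fell in KO and 4 in control cells, against the same shares of all genes. Chaf1a, a subunit of the chromatin assembly factor CAF-1 that loads new histones on replicating DNA, fell in both (-1.10 and -0.93), and Chaf1b, its partner, in KO cells (-0.82, SE 0.16). Ncl and Tonsl were called in both genotypes, Cabin1 in control cells, and Asf1b, Dnajc9 and Hjurp in KO cells. In treated KO against treated control cells Asf1a, Chaf1b, Dnajc9, Nap1l4, Nasp, Npm1 and Ruvbl2 were lower, and Cabin1 was higher (0.77, SE 0.18).

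Of 25 genes for histone 3′ end processing, including Slbp, 0 were called with TGF-β in either genotype or between untreated cells. With 2.57%, 4.47% and 1.83% of all genes called in KO, control and untreated cells (lower in the first pair, either way in the last), counts of 0 in a list of this size are near the background. In treated KO against treated control cells 3 of the 25 were called lower, beside 6.57% of all tested genes, and 1 higher, beside 1103 of 13028. Slbp (-0.79, SE 0.14, edgeR adjusted p = 0.00776), Casp8ap2 (-1.07) and Snrpe (-0.96) were lower. Upf1, which takes part in histone mRNA decay, was higher (0.76, SE 0.18). Slbp had log2 fold changes with TGF-β of -0.50 in KO cells (SE 0.14) and 0.25 in control cells (SE 0.14), neither called. Of 10 tested histone genes listed as replication-independent, H2afx among them, 0 were called with TGF-β in KO cells. At this list size that is near the 2.57% of all genes called lower. Their median was -0.14, while the median over all genes was 0. H3f3a rose in control cells (0.58, SE 0.14), and H1f0, H2afz and H3f3a, 3 of 10 beside 6.57% of all genes, were lower in treated KO than in treated control cells. H2afx, whose gene also holds the stem-loop, had -1.14 in KO and -0.82 in control cells, and neither was called.

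**Figure D5:**
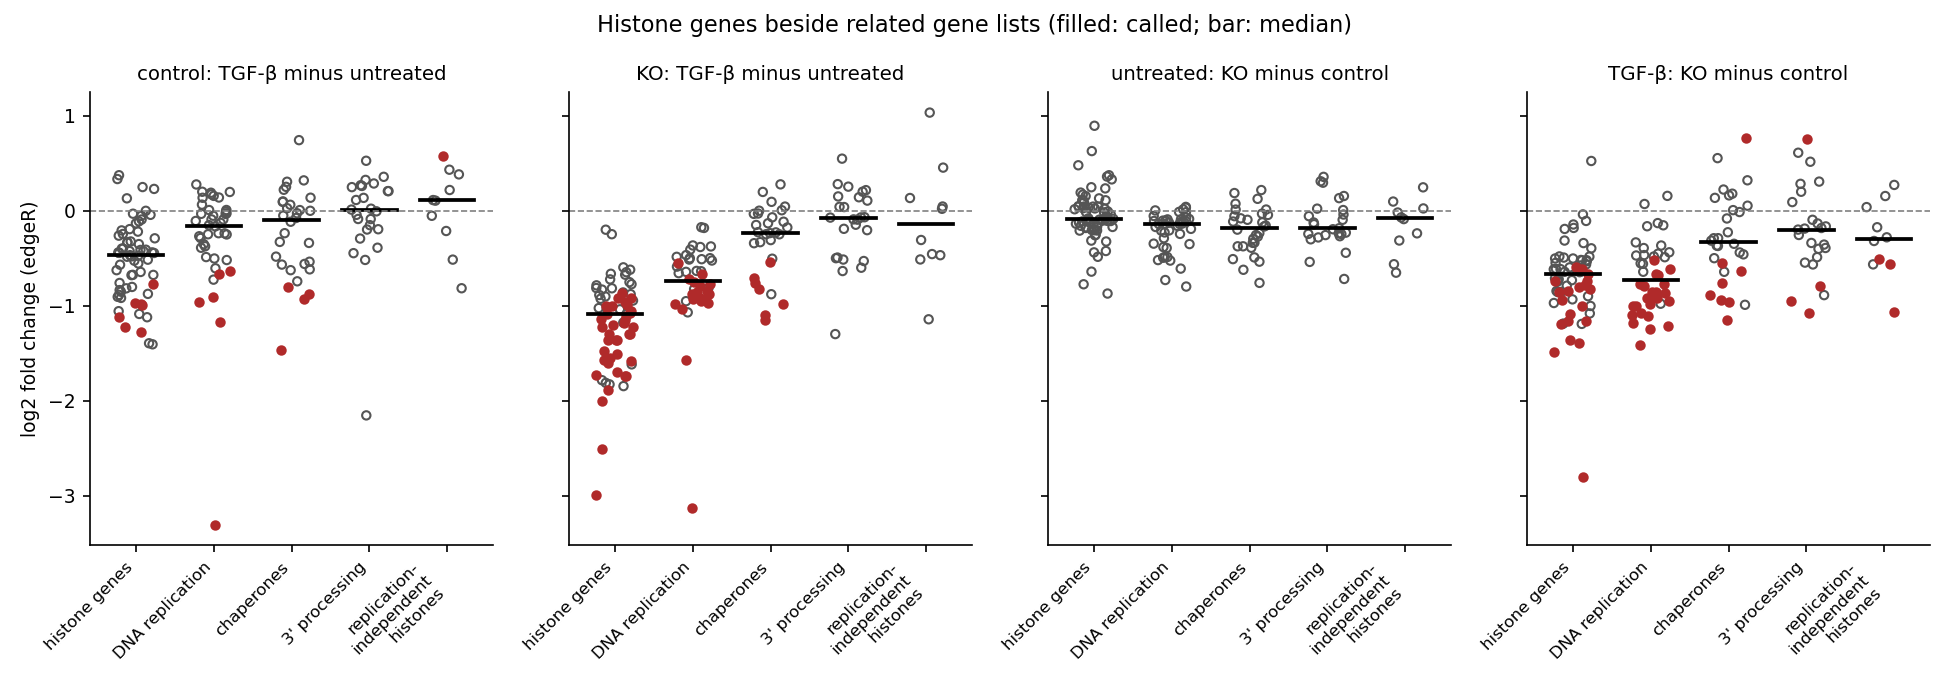
log2 fold change (edgeR, y axis) of the tested histone genes and of 4 related gene lists (x axis) in 4 comparisons; filled points are called and bars are medians. With TGF-β in KO cells the histone and DNA replication genes lie below 0, with medians of -1.09 and -0.74, and the replication-independent histones are centred at -0.14.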

How the data were processed

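The authors deposited raw counts of reads per gene for 8 libraries. Per the study's methods, reads were aligned with subjunc to mm10 and mm9 and duplicates removed with samtools rmdup, while the labels' processing notes name HISAT2, limma and mm10. The counting tool and strand setting are not given in the sources used here. Identifiers equal GENCODE vM1 (NCBIM37, mm9) in all 37310 rows, and symbols and positions came from it. Removing duplicates would cap a short gene, but Hist1h4d held up to 5436 counts on 393 exonic bases.

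For 13028 genes, edgeR 4.0.16 (R 4.3.3) gave TMM-scaled CPM and quasi-likelihood tests; these genes were those passing filterByExpr, with a model of the 4 groups and no block. The standard error is the absolute log2 fold change divided by the root of F. Code was tested on simulated data. Alternatives were DESeq2 1.42.0, limma-voom (limma 3.58.1), other scalings, filters, thinning, a block and leaving out each library. Replicates are called biological in the study's methods. With 2 per group, p-values rest on 4 residual and 5.50 prior degrees of freedom.

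Genes named are histone genes called in any comparison, the most abundant member of each class and list genes called; other genes in the text, the genes set against the KO labels, the genes plotted by library, the stem-loop and motif searches, the unique windows and the head-to-head couples were chosen after values were seen. Members and lists were chosen with earlier results of these data known. Not every list gene called is reported here by name.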

Additional observations from a re-analysis of the deposited data

How the results depend on the processing

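With other settings, histone genes called lower with TGF-β in KO cells numbered 56 with DESeq2 and 61 without a filter on low counts (main 37). In control cells they numbered 16 with DESeq2, 24 without the filter, 11 after thinning and 3 with the 4 libraries alone (main 7). In treated KO against treated control cells they numbered 32 with DESeq2, 41 without the filter and 2 with the 4 libraries alone (main 20). Between untreated cells 1 was called without the filter and 1 with the 4 libraries alone (main 0), and for the difference of responses 5 without the filter (main 0). The cause was not tested. In each of these settings 0 histone genes were called higher. Leaving out each library gave 4 to 57 calls with TGF-β in KO cells, 0 to 25 in control cells, 2 to 29 between treated cells, and 0 for untreated cells and for the difference. A group left with 1 library is assumed to vary like the others.

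Median log2 fold changes without each library were -1.31 to -0.93 with TGF-β in KO cells, -0.82 to -0.29 in control cells, -0.88 to -0.38 between treated cells and -0.79 to -0.32 for the difference. Between untreated cells they were -0.25 to 0.12, the sign turning to 0.12 without control replicate 1 and to 0.08 without KO replicate 1. The deviations of same-numbered libraries correlated by -0.01 with TGF-β in KO cells, 0.30 in control cells, -0.47 between treated and 0.10 between untreated cells, so the number was not taken as a pairing throughout. With the replicate number as a block the counts were 36, 5, 16 and 0 in that order and 0 for the difference. With the treated KO numbers crossed, an alternative chosen after seeing the data, they were 55, 14, 31 and 0, and 0 for the difference. Class sums kept their values within the spread between libraries under RLE and plain scaling. With 2 libraries per group, differences smaller than the spread between replicates may have been missed, and no limit of detection was measured.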
